A study of Mus musculus with 6 samples.

Results

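The mitochondrial ribosomal proteins were taken as the genes whose symbol is Mrpl or Mrps followed by a number and at most 1 letter. They came to 77 of the 16179 genes in the deposited table, 48 named for the large subunit (Mrpl) and 29 for the small subunit (Mrps). The mitochondrial ribosome translates the few messenger RNAs of the mitochondrial genome, which encode subunits of the respiratory chain and of ATP synthase. Its ribosomal RNAs come from mitochondrial DNA, while all of its proteins are encoded in the nucleus, made on cytosolic ribosomes and imported. Some of these proteins have bacterial counterparts and others are found only in mitochondria. In microglia, the resident macrophages of the brain, oxidative phosphorylation is known to change with activation state.

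RNA was sequenced from microglia of the hippocampus of male mice aged 10 months that lack progranulin (strain B6.129S4(FVB)-Grntm1.1Far/Mmja), a secreted lysosomal protein. About 10000 live CD11b+ CD45lo cells were sorted per sample, each sample being a pool of 2 mice, and the cells were divided by BODIPY, a dye of neutral lipids, into those with few and those with many lipid droplets. The fractions are called BODIPY-low and BODIPY-high, with 3 libraries each. Every group carried the knockout, and wild-type cells were not analysed here, so the comparison is of lipid droplet content within progranulin-deficient cells. In such bulk samples, fewer cells of a type and less RNA per cell cannot be told apart.

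The libraries held between 24982215 and 34899425 reads assigned to genes, with 14304 to 14535 genes detected in BODIPY-low and 14688 to 14783 in BODIPY-high. All values are the authors' normalised read counts, and log2 fold changes are BODIPY-high minus BODIPY-low on the log2(value + 1) scale. Each gene was tested with limma among 12821 genes with a mean of at least 10, and was called at an adjusted p below 0.05. Reads of the targeted gene Grn were present in all libraries, at 416, 625 and 990.1 in BODIPY-low and 468, 657 and 1614 in BODIPY-high. The groups of Grn overlapped, and where along the gene these reads lie was not analysed here. Microglial markers (P2ry12, Tmem119, Cx3cr1 and 7 others) took 6.46%, 6.16% and 5.80% of reads in BODIPY-low and 5.48%, 5.28% and 5.13% in BODIPY-high, without overlap. Of these 10 markers 3 fell in BODIPY-high (Cx3cr1, Itgam and Gpr34), named after their values were seen. Of the 10, 8 had a log2 fold change below 0 and 2 above it. Markers of other cells differed between the fractions. All 8 tested markers of choroid plexus epithelium, such as Ttr and Enpp2, rose in BODIPY-high, with summed values of 18515, 3726 and 7156 in BODIPY-low against 251540, 150290 and 263183. All 9 tested neutrophil markers, such as Ngp and Ltf, fell, from sums of 79663, 30043 and 30732 to 504, 2304 and 197. The choroid plexus marker Foxj1 was at 0 in BODIPY-low replicates 2 and 3, and the neutrophil marker Elane was at 0 in BODIPY-high replicates 2 and 3. Median log2 fold changes of further marker lists were 0.82 for border macrophages, 0.94 for astrocytes, 1.37 for neurons, 1.06 for oligodendrocytes and 0.23 for endothelium. In each of these lists at most 1 gene rose and none fell. The neuron median rests on few reads, its 5 markers summing to 102, 111 and 68.7 in BODIPY-low and 214, 273 and 207 in BODIPY-high. Monocyte markers had a median of -5.02, and 3 of 5 tested fell. The part of all these cells in the results below was not tested.

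Most mitochondrial ribosomal protein genes lay slightly higher in BODIPY-high, and few passed the test. All 77 passed the filter on low values. Of the 48 large subunit genes 1 rose, Mrpl49, and of the 29 small subunit genes 2 rose, Mrps6 and Mrps18a. Together 3 of 77 (3.90%) rose, where 9.79% of all tested genes did. None fell by limma or edgeR, where 3.52% of all tested genes fell. At an unadjusted p below 0.05, 13 were higher and 1 was lower, where 2059 and 1416 of the 12821 tested genes were. DESeq2 called 5 higher and 1, Mrpl50, lower, where it called 1461 and 671 of all tested genes. The fold change was above 0 for 63 of 77 genes (81.8%), against 48.1% of all tested genes. It was above 0 for 42 of 48 large subunit genes (87.5%) and 21 of 29 small subunit genes (72.4%).

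The sizes were modest. The median log2 fold change was 0.21 for the large subunit, with quartiles of 0.07 and 0.30, and 0.09 for the small subunit, with quartiles of -0.03 and 0.43. The median of all tested genes was -0.01. The large subunit values ran from -0.36 to 0.52 and the small subunit values from -0.20 to 1.11. In 18 genes (23.4%) the lowest BODIPY-high library exceeded the highest BODIPY-low library, 10 of them large and 8 small, against 18.0% of all tested genes. The reverse held for 1 gene, Mrpl50, against 13.4% of all tested genes. No set test was made, so these shares describe the genes and do not set them apart from others. The medians stayed above 0 under every scaling and with any library left out. Their lows were 0.14 for the large and 0.05 for the small subunit, without BODIPY-low replicate 2. With 1 library left out, 36 to 44 large and 18 to 23 small subunit genes lay above 0. With the length and GC trend removed, 36 large and 20 small subunit genes did. The median length of merged exons was 2255 bases for the 77 genes and 4440 for all tested genes.

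**Figure D1:**
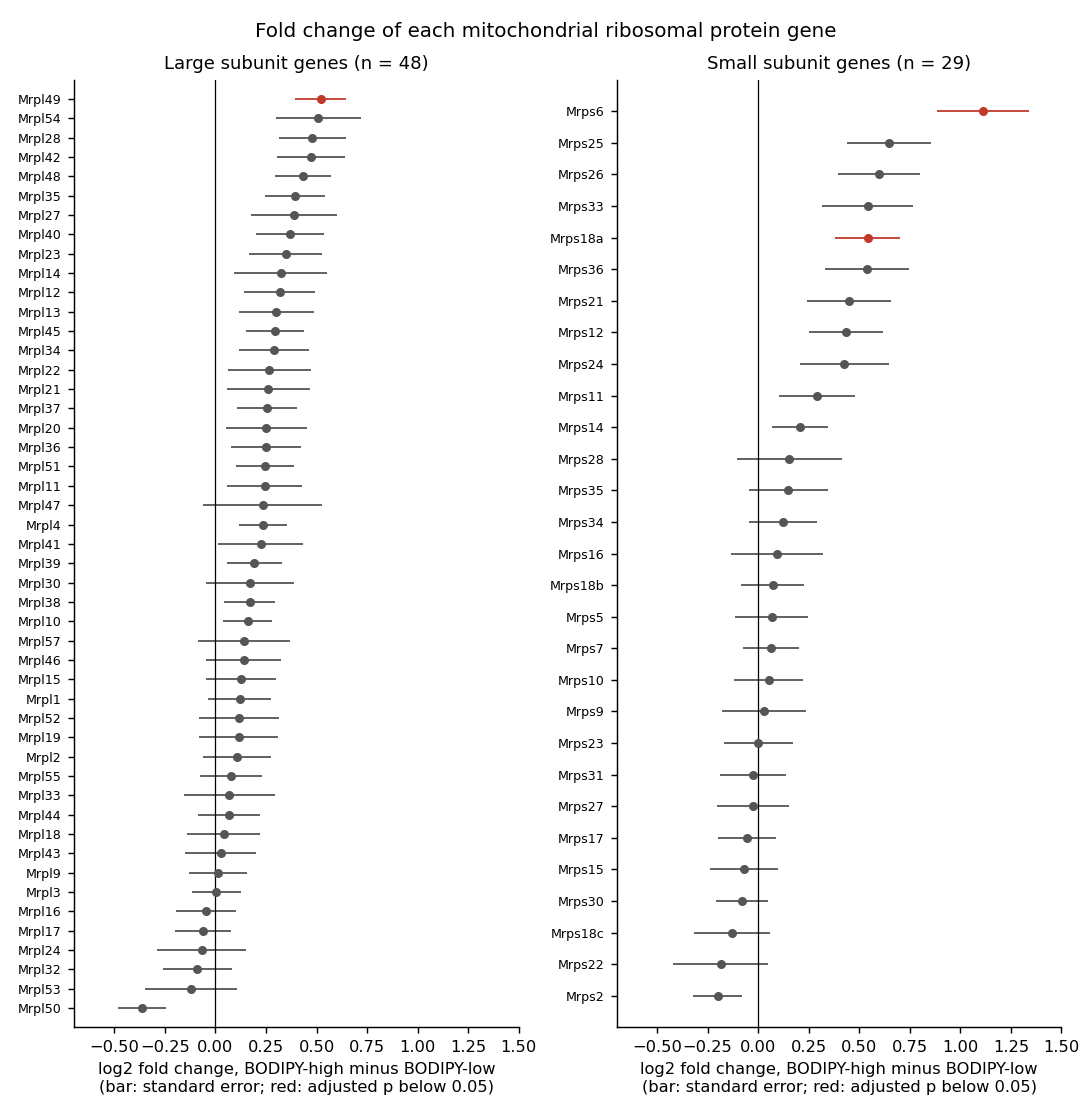
Log2 fold change of each gene on the horizontal axis, BODIPY-high minus BODIPY-low, with its standard error as a bar; large subunit genes are on the left and small subunit genes on the right, and red marks an adjusted p below 0.05. Most points lie to the right of 0, and 3 are red: Mrpl49, Mrps6 and Mrps18a.

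**Figure D2:**
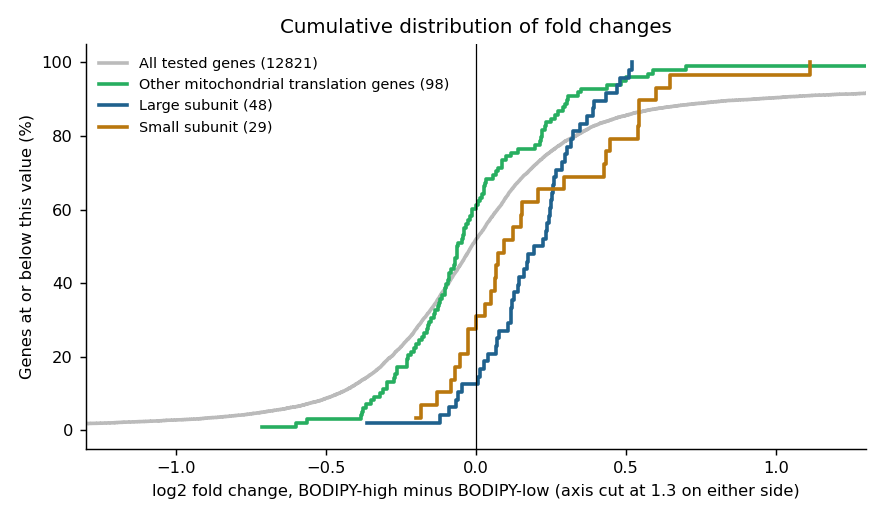
Percentage of genes at or below each log2 fold change. Curves are for the 48 large and 29 small subunit genes, the 98 other mitochondrial translation genes and all 12821 tested genes. The list of 98 also holds genes of mitochondrial DNA and RNA, of membrane insertion, and regulators. Both subunit curves cross the middle to the right of 0, at 0.21 and 0.09, while the other mitochondrial translation genes cross at -0.06.

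Mrps6, a small subunit protein with a bacterial counterpart, had the largest change of the 77 genes. Its gene lies on chromosome 16 at 92058270 to 92112227 (GRCm38). Its normalised read counts in replicates 1, 2 and 3 were 290, 162 and 196 for BODIPY-low, against 510, 424 and 435 for BODIPY-high. The groups were well apart, the lowest BODIPY-high library being above the highest BODIPY-low one. Its mean went from 216 ± 66.6 to 456 ± 46.7 (SD, n = 3 each), which is 1.11 in log2 (SE 0.23, adjusted p = 0.00850). The call held under all 19 alternatives, at log2 fold changes of 0.93 to 1.35 and adjusted p-values up to 0.0389. Its exons share bases with 2 genes on the same strand, 305 bases (19.9% of its exons) with Gm49711 and 159 (10.4%) with Slc5a3, a myo-inositol transporter gene. Slc5a3 itself stood at 646, 475 and 458 in BODIPY-low and 735, 289 and 519 in BODIPY-high, and did not pass the test (-0.12, adjusted p = 0.840). Its groups overlapped, unlike those of Mrps6.

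Mrpl49, a mitochondria-specific protein of the large subunit, was the tightest of the 3. Its gene lies on chromosome 19 at 6053622 to 6057785. It had 633, 612 and 671 normalised reads in the BODIPY-low libraries and 932, 966 and 853 in the BODIPY-high ones. Replicates of a fraction stood close together and the fractions did not overlap. The mean rose from 639 ± 30.0 to 917 ± 58.3 (SD, n = 3 each), which is 0.52 in log2 (SE 0.12, adjusted p = 0.0184). The call was lost without BODIPY-low replicate 2 (adjusted p = 0.0798), BODIPY-low replicate 3 (0.0513) or BODIPY-high replicate 2 (0.0535). Its exons share 91 bases with Syvn1 on the other strand, which lay lower in BODIPY-high (-0.27, adjusted p = 0.0796).

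Mrps18a is 1 of 3 mammalian relatives of a single bacterial small subunit protein, and in structures of the mammalian ribosome its product sits in the large subunit. Its gene lies on chromosome 17 at 46110986 to 46128910. It had 528, 387 and 481 normalised reads in the BODIPY-low libraries and 612, 683 and 725 in the BODIPY-high ones, so that the fractions did not overlap. The mean rose from 465 ± 72.0 to 674 ± 57.1 (SD, n = 3 each), which is 0.54 in log2 (SE 0.16, adjusted p = 0.0472). Its relatives did not pass the test, Mrps18b at 0.07 (adjusted p = 0.813) and Mrps18c at -0.13 (adjusted p = 0.715). The Mrps18a call lay close to the threshold and was lost without BODIPY-low replicate 2 (adjusted p = 0.190), BODIPY-low replicate 3 (0.116), BODIPY-high replicate 2 (0.0979) or BODIPY-high replicate 3 (0.155). It was also lost with no filter (0.0516), total scaling (0.0510), quantile normalization (0.0518) and removal of the length and GC trend (0.0508).

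**Figure D3:**
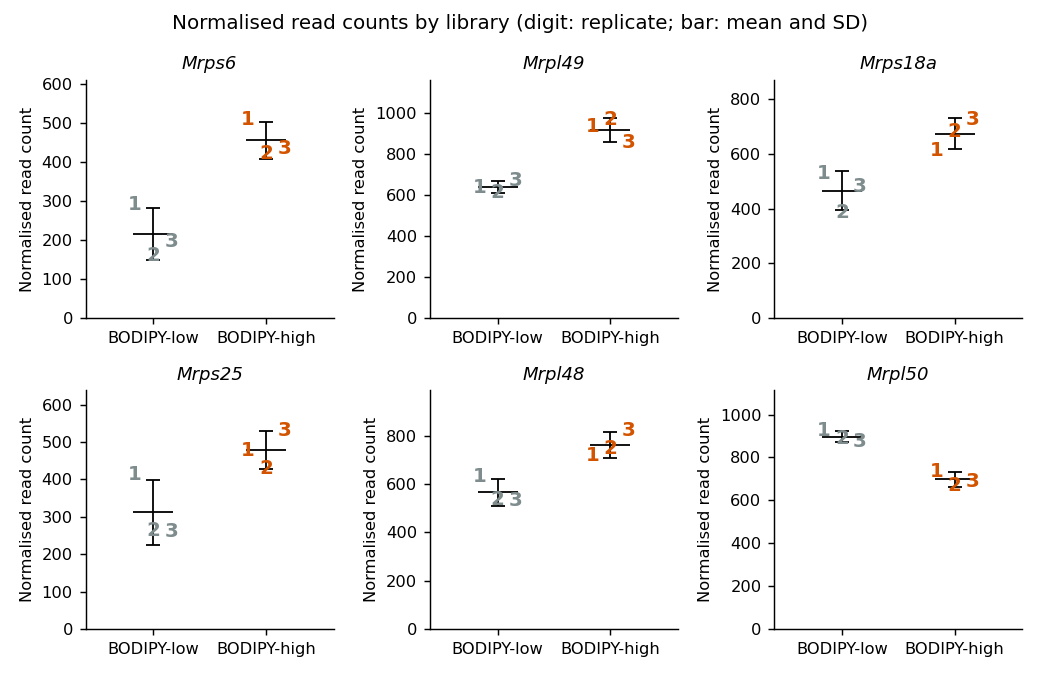
Normalised read counts (vertical axis, from 0) of Mrps6, Mrpl49, Mrps18a, Mrps25, Mrpl48 and Mrpl50 in each library, the digit giving the replicate and the bar the mean and SD of 3 libraries. The fractions do not overlap in any of the 6 panels, and Mrpl50 alone is lower in BODIPY-high. Only the first 3 genes passed the test. All 6 are from the members whose fractions do not overlap, while those of most of the 77 do, so the panels do not stand for the family.

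The promoters of the 3 genes that rose are shown because they differ in the motifs they hold. Each runs from 250 bases before to 50 bases after the first start that RefSeq lists, on the gene's own strand (RefSeq, GRCm38.p6). Capitals mark matches, on either strand, to CCGGAAG (the ETS type bound by GABPA), AAGATGGCG (YY1, over a start codon), GCATGCGC (the NRF1 core) and GGGCGG (the GC box bound by SP1). These factors are known regulators of nuclear genes for mitochondrial proteins.
Mrps6, chr16:92058086-92058385, + strand: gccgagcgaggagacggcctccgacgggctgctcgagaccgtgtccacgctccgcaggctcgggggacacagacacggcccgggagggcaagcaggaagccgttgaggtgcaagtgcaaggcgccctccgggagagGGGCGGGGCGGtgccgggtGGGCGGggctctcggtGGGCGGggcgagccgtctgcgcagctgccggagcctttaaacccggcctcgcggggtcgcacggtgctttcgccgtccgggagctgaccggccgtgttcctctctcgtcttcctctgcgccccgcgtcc
Mrpl49, chr19:6057706-6058005, - strand: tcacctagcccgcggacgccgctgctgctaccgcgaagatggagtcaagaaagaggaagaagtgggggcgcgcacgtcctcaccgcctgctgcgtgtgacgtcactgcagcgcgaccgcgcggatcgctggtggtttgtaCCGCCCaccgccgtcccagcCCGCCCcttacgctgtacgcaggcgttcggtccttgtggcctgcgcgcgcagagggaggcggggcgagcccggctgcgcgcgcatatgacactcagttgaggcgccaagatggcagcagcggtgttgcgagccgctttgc
Mrps18a, chr17:46110754-46111053, + strand: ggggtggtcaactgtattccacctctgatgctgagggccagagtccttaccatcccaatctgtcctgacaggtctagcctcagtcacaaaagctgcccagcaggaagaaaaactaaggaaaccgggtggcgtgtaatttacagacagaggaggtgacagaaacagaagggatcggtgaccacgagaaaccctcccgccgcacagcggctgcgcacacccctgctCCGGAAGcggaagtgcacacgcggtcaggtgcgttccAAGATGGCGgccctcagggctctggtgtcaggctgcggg
Mrps6 held 4 GC boxes, the first pair of which overlap, and Mrpl49 held 2, while neither had a match to the other motifs. Mrps18a held 1 CCGGAAG and 1 AAGATGGCG and no GC box. Thus none of the motifs marked here was common to the 3 promoters. The window of Mrpl49 reaches across the start of its neighbour Fau, described below. That of Mrps6 also holds the annotated start of Slc5a3, on the same strand at 92058322.

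Over the family, 68 of the 77 genes had a promoter in the RefSeq table. CCGGAAG was in 24 of them (35.3%), against 18.3% of 9813 tested genes and 9.12% of all 27025 promoters. Among promoters of cytosolic ribosomal proteins it was in 22 of 57 (38.6%). AAGATGGCG was in 11.8% of the family's promoters, against 5.26% of cytosolic ribosomal proteins, 3.26% of tested genes and 1.49% of all. GCATGCGC was also in 11.8%, against 3.51%, 5.60% and 2.80%. It was in 7 of 42 large subunit promoters and 1 of 26 small subunit promoters. The GC box was in 50% of the family's promoters, against 57.9% of cytosolic ribosomal proteins, 64.1% of tested genes and 35.9% of all. The E-box CACGTG was in 7.35%, against 8.77%, 10.3% and 7.24%, and TATAAA in 5.88%, against 7.02%, 6.99% and 14.2%. The median log2 fold change was 0.10 for the 24 genes with CCGGAAG and 0.20 for those without. It was 0.34 for the 8 genes with AAGATGGCG and 0.13 without, and 0.07 for the 8 with GCATGCGC and 0.22 without. For the GC box it was 0.14 with and 0.18 without, for CACGTG 0.25 with (5 genes) and 0.16 without, and for TATAAA 0.05 with (4 genes) and 0.18 without. A match is only a run of letters, and no match says nothing of whether a factor binds.

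**Figure D4:**
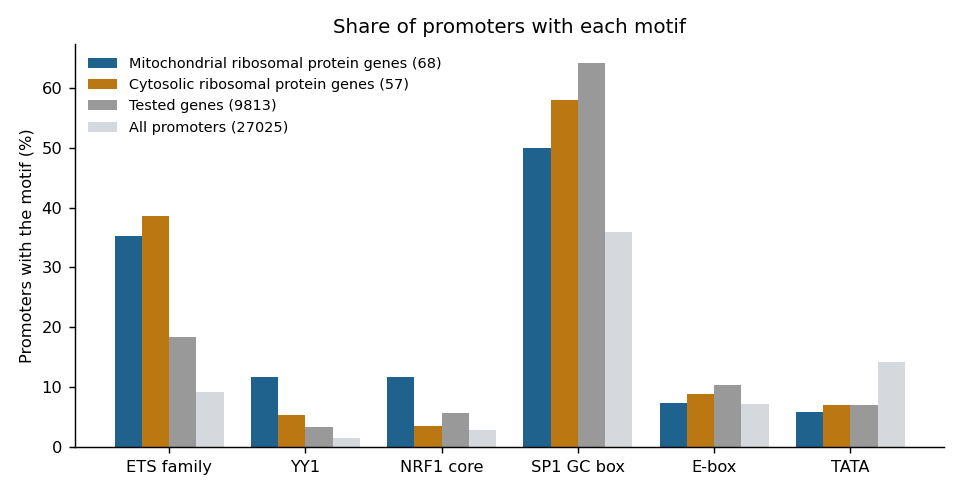
Percentage of promoters with each motif on either strand, for the 68 mitochondrial ribosomal protein genes, 57 cytosolic ribosomal protein genes, 9813 tested genes and all 27025 promoters. The ETS motif stands at 35.3% in the family and 38.6% in the cytosolic ribosomal proteins against 18.3% of tested genes, and the GC box at 50% against 64.1%.

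Several other small subunit genes lay higher without passing the test. Mrps25, a mitochondria-specific protein, had 413, 263 and 260 normalised reads in the BODIPY-low libraries and 477, 429 and 532 in the BODIPY-high ones. The fractions did not overlap, with a fold change of 0.65 in log2 (SE 0.21, adjusted p = 0.0654). Of its exonic bases, 69.8% are shared with Nr2c2 on the other strand, a nuclear receptor gene that stood at -0.10 (adjusted p = 0.703). Mrps26, also specific to mitochondria, had 292, 196 and 236 in BODIPY-low and 321, 360.2 and 407 in BODIPY-high (0.60, SE 0.20, adjusted p = 0.0793). Its fractions did not overlap either. Mrps36, whose product is better known as a subunit of the alpha-ketoglutarate dehydrogenase complex, had 157, 141 and 168 against 214, 248 and 215 (0.54, SE 0.21, adjusted p = 0.120). Mrps12, a protein of the decoding centre, had 338, 247 and 298 against 424, 411 and 354 (0.43, SE 0.18, adjusted p = 0.154). Both of these pairs of groups were apart.

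At the lower end of the small subunit, Mrps2, a protein with a bacterial counterpart, had 1650.0, 1420.4 and 1575 normalised reads in the BODIPY-low libraries and 1347, 1504 and 1199.7 in the BODIPY-high ones. The groups overlapped, at -0.20 (SE 0.12, adjusted p = 0.319). Mrps22, specific to mitochondria, had 360.2, 332 and 284 against 370.3, 202 and 309.9, also overlapping (-0.18, SE 0.24, adjusted p = 0.670). Mrps30, which like Mrps18a sits in the large subunit of mammalian structures, stood at -0.08 (SE 0.13, adjusted p = 0.734). With Mrps18a and Mrps30 counted as large subunit and Mrps36 left out, 2 of 50 large and 1 of 26 small subunit genes rose.

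In the large subunit, Mrpl54, specific to mitochondria, had 201, 145 and 174 normalised reads in the BODIPY-low libraries and 247, 238 and 249.5 in the BODIPY-high ones (0.51, SE 0.21, adjusted p = 0.143). Mrpl28, which has a bacterial counterpart, had 911, 571 and 673 against 940.3, 973 and 1039 (0.48, SE 0.17, adjusted p = 0.0872). Neither pair of groups overlapped, although BODIPY-low replicate 1 of Mrpl28 came close to the BODIPY-high libraries. Mrpl48, specific to mitochondria and named after its values were seen, had 631, 536 and 532 against 718, 749 and 823, again without overlap (0.43, SE 0.14, adjusted p = 0.0637). This was the lowest adjusted p among the 74 members that did not pass the test, and the highest was 0.997 for Mrps23. Mrpl12, a protein of the stalk that binds translation factors, had 778, 494 and 539 against 708, 701 and 809, with overlap (0.32, SE 0.18, adjusted p = 0.286).

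Mrpl50, a mitochondria-specific large subunit protein on chromosome 4 at 49512596 to 49521093, had the most negative value. It had 927, 889.7 and 876 normalised reads in the BODIPY-low libraries and 737, 668 and 689.6 in the BODIPY-high ones. It was the 1 member whose BODIPY-high libraries all lay below the BODIPY-low ones, at -0.36 in log2 (SE 0.12, adjusted p = 0.0724), and DESeq2 called it (adjusted p = 0.0476). Mrpl53 followed at -0.12 (SE 0.23, adjusted p = 0.788) and Mrpl32 at -0.09 (SE 0.17, adjusted p = 0.787). Both had overlapping groups. Of Mrpl53's exonic bases, 88.0% are shared with another annotated gene on the same strand.

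Library by library, the subunits moved together. The mean deviation from the BODIPY-low mean, in log2 units over the large subunit genes, for replicates 1, 2 and 3 was 0.20, -0.16 and -0.04 in BODIPY-low, against 0.11, 0.26 and 0.19 in BODIPY-high. For the small subunit it was 0.20, -0.14 and -0.06, then 0.15, 0.25 and 0.20. BODIPY-low replicate 1 thus stood among the BODIPY-high libraries for both subunits. It was the highest BODIPY-low library for 62 of the 77 genes (80.5%), against 40.0% of all tested genes, and replicate 2 was the lowest for 48. Summed over both subunits, the normalised reads were 42664, 34707 and 36949 in BODIPY-low and 40466, 44750 and 42384 in BODIPY-high, so that the groups overlapped. The large subunit sum was between 1.87 and 1.99 times the small subunit sum in every library.

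**Figure D5:**
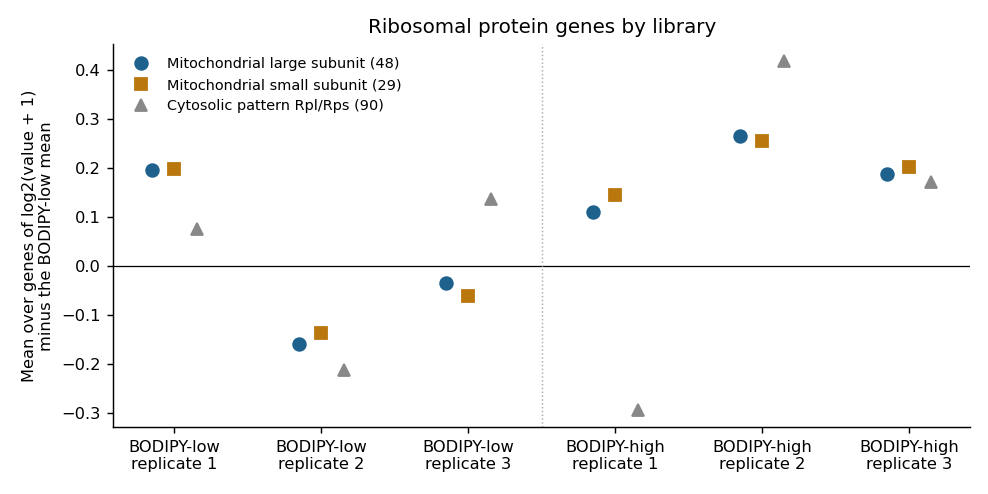
Mean over genes of the log2(value + 1) deviation from the BODIPY-low mean, in each library, for 48 large subunit genes, 29 small subunit genes and the 90 tested genes of the cytosolic pattern. The 2 mitochondrial subunits lie side by side in every library, with BODIPY-low replicate 1 at 0.20, while the cytosolic genes are lowest in BODIPY-high replicate 1 at -0.29 and highest in replicate 2 at 0.42.

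BODIPY-low replicate 1 also had the highest BODIPY-low sums of choroid plexus markers (18515) and of neutrophil markers (79663). The same held for markers of monocytes (13078), border macrophages (1084), astrocytes (8106) and microglia (6.46% of reads). BODIPY-low replicate 1 was not the highest for markers of neurons, oligodendrocytes or endothelium. What sets its mitochondrial ribosomal protein genes higher was not tested. Without it, 9 of the 77 members rose, a share close to that of all tested genes (1295 of 12821, 10.1%). The 4 of the large subunit were Mrpl28 (0.66), Mrpl42 (0.65), Mrpl49 (0.51) and Mrpl48 (0.51). The 5 of the small subunit were Mrps6 (1.35), Mrps25 (0.87), Mrps33 (0.77), Mrps26 (0.75) and Mrps18a (0.64). Of these, Mrpl42, Mrpl48 and Mrps33 were outside the rule for named genes and were named after their values were seen. The medians became 0.32 for the large and 0.25 for the small subunit. Without BODIPY-low replicate 2, BODIPY-low replicate 3 or BODIPY-high replicate 2, 0 large subunit genes and 1 small subunit gene, Mrps6, rose. Of all 12821 tested genes, 877, 896 and 1141 rose in these 3 settings. Without BODIPY-high replicate 3, Mrpl49 and Mrps6 rose, where 689 of all tested genes did.

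Levels were compared between genes only as normalised reads per kilobase of merged exons, averaged over the 6 libraries. The median level was 233 for the large and 179 for the small subunit. The highest large subunit genes were Mrpl43 (619.8), Mrpl28 (617) and Mrpl10 (596), and the lowest were Mrpl33 (31.8), Mrpl47 (44.0) and Mrpl13 (53.4). The highest small subunit genes were Mrps2 (497), Mrps7 (434) and Mrps21 (419.7), and the lowest were Mrps35 (39.9), Mrps10 (40.9) and Mrps5 (55.0). The length used counts all annotated exons of a gene, and the ranks at the ends depend on it. Per kilobase of the longest transcript, the highest small subunit genes were Mrps21 (636), Mrps15 (629) and Mrps18b (609) and the lowest were Mrps25 (65.1) and Mrps26 (70.6). On that scale Mrpl28 (751) was the highest large subunit gene and Mrpl47 (57.8) the lowest, with Mrpl33 at 85.0. Mrps15 was named after its values were seen. Of Mrpl43's exonic bases, 33.4% are shared with the Twinkle helicase gene on the other strand. Across the 77 genes the log2 fold change had a Pearson correlation of -0.16 with log2 exon length, 0.24 with GC content and -0.20 with log2 mean value, given as descriptions over genes that share the same 6 libraries.

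Many of these genes begin back to back with another gene. A protein-coding gene on the other strand started within 1000 bases upstream, or overlapped the start by at most 300 bases, for 23 of the 77 (29.9%), against 13.3% of 11883 tested protein-coding genes. Mrpl49 starts 59 bases from Fau, which encodes a cytosolic ribosomal protein. Fau had 1000.5, 736 and 1019 normalised reads in the BODIPY-low libraries and 769, 1471 and 1113 in the BODIPY-high ones, with overlap (0.25, SE 0.22, adjusted p = 0.516). Mrps12 starts 172 bases from Sars2, the mitochondrial seryl-tRNA synthetase, which had 131, 189 and 173 against 233, 247 and 186 (0.44, SE 0.23, adjusted p = 0.259). The groups of Sars2 overlapped by a small margin, while its fold change was close to the 0.43 of Mrps12. Of the 22 tested partners, none was called by limma or edgeR and DESeq2 called 1 lower. Of all tested genes, limma called 9.79% higher and 3.52% lower. At an unadjusted p below 0.05, 1 partner was higher and 3 were lower, where 2059 and 1416 of the 12821 tested genes were. The partner's fold change had the sign of the member's in 10 of 22 pairs. The Pearson correlation over these pairs was 0.46, against 0.22 over 689 such pairs of all tested protein-coding genes.

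Cytosolic ribosomal proteins did not pass the test with all 6 libraries. Their symbol pattern took 96 genes, of which 90 were tested and 1 rose, Rps6ka6, which is an S6 kinase and no ribosomal protein. Of the 74 tested ribosomal proteins proper, limma, edgeR and DESeq2 called none, and 1 was higher at an unadjusted p below 0.05. Their median log2 fold change was 0.13 and 61 of 74 (82.4%) lay above 0. The order of their libraries was another one. The mean deviation over the pattern was 0.08, -0.21 and 0.14 in BODIPY-low and -0.29, 0.42 and 0.17 in BODIPY-high. BODIPY-high replicate 2 was the highest of its group for 81 of the 90 genes, and without it the pattern's median turned from 0.11 to -0.06. It was -0.01 without BODIPY-low replicate 2. Without BODIPY-high replicate 1, the lowest of its group for 80 of the 90 genes, the median was 0.30 and 2 ribosomal proteins, Rpl4 and Rpl7a, passed the test as higher.

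A wider list, called other mitochondrial translation genes here, held ribosomal proteins with other names, translation factors, tRNA synthetases and assembly factors. It also held 20 genes of mitochondrial DNA and RNA, 5 of membrane insertion and 10 regulators, not all of which act in translation. Of the 98 tested, 5 rose and 3 fell, where 9.79% of all tested genes rose and 3.52% fell. The median log2 fold change was -0.06. Of the 98 genes 39 (39.8%) lay above 0, against 48.1% of all tested genes. Among 6 ribosomal proteins that carry other names, 5 lay above 0, with a median of 0.20. The 1 that rose was Aurkaip1, of the small subunit. It had 573, 490.2 and 560.5 normalised reads in the BODIPY-low libraries and 746, 819 and 730.2 in the BODIPY-high ones, without overlap (0.50, SE 0.14, adjusted p = 0.0328). Dap3, a GTP-binding small subunit protein (0.30, adjusted p = 0.199), and Ict1, a peptidyl-tRNA hydrolase built into the large subunit (0.57, adjusted p = 0.120), had groups that did not overlap. Ptcd3 (-0.07), Chchd1 (0.09) and Gadd45gip1 (0.03) had adjusted p-values of 0.813 to 0.945.

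By limma, 9.79% of all tested genes rose and 3.52% fell. Of the 12 translation factors, 1 fell and none rose by limma, edgeR or DESeq2, or at an unadjusted p below 0.05. The one that fell was Gfm2, which takes part in splitting the ribosome after termination, with 2046, 2212 and 2387 normalised reads in BODIPY-low and 1848, 1526 and 1746 in BODIPY-high (-0.38, SE 0.11, adjusted p = 0.0464). Its groups did not overlap. Tufm, the elongation factor that delivers aminoacyl-tRNA, stood at 0.00 (SE 0.10), and its exchange factor Tsfm at 0.23 (SE 0.18). The translocase Gfm1 stood at 0.22, the initiation factors Mtif2 and Mtif3 at -0.10 and -0.12, and the recycling factor Mrrf at 0.25. The release factors Mtrf1 and Mtrf1l stood at 0.30 and -0.27, the rescue factor listed as 2810006K23Rik at -0.05, the GTPase Guf1 at -0.30, and Mtfmt, which formylates the initiator tRNA, at -0.26.

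Single genes passed in the lists around them, where 9.79% of all tested genes rose and 3.52% fell. Fars2, the mitochondrial phenylalanyl-tRNA synthetase, rose from 513 ± 58.0 to 769 ± 38.2 (0.59, SE 0.14, adjusted p = 0.0178), 1 of 20 in its list. Mterf4, which brings an RNA methyltransferase to the large subunit, fell from 550.1 ± 69.4 to 335 ± 34.6 (-0.71, SE 0.17, adjusted p = 0.0164), 1 of 25 assembly factors. Hsd17b10, a dehydrogenase that is also a subunit of mitochondrial RNase P, rose from 390.0 ± 112 to 620 ± 68.3 (0.70, SE 0.20, adjusted p = 0.0457). The Twinkle helicase of mitochondrial DNA, listed as Peo1, fell from 606 ± 45.5 to 403 ± 64.8 (-0.60, SE 0.16, adjusted p = 0.0330). Letm1, an inner membrane protein, rose from 2329 ± 54.1 to 2952 ± 272 (0.34, SE 0.10, adjusted p = 0.0432). Each mean has n = 3 and its SD, and the groups of none of these genes overlapped. These 5 calls, with those of Aurkaip1 and Gfm2, were each lost when BODIPY-low replicate 2 or BODIPY-high replicate 3 was left out, and all but that of Mterf4 when BODIPY-low replicate 3 was. BODIPY-high replicate 1 ended the calls of Aurkaip1, Peo1, Hsd17b10 and Letm1 when left out, BODIPY-high replicate 2 those of Aurkaip1, Gfm2 and Hsd17b10, and BODIPY-low replicate 1 those of Mterf4, Peo1 and Letm1. The highest adjusted p with 1 library left out was 0.139 for Aurkaip1, 0.193 for Gfm2, 0.0813 for Fars2, 0.0673 for Mterf4, 0.171 for Hsd17b10, 0.107 for Peo1 and 0.172 for Letm1. Removal of the length and GC trend also ended the calls of Aurkaip1 (adjusted p = 0.0684), Gfm2 (0.0851) and Hsd17b10 (0.0511), and with the replicate block added those of Aurkaip1 (0.0666) and Gfm2 (0.0605). A mean of at least 50 ended those of Gfm2 (0.0533) and Letm1 (0.0511), total scaling that of Letm1 (0.0591), and edgeR (0.0530) and quantile normalization (0.0505) that of Hsd17b10.

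Among 10 regulators of such genes, 1 rose, where 9.79% of all tested genes did. Ppargc1a, a coactivator of mitochondrial gene programmes, had 10.3, 4.26 and 12.1 normalised reads in the BODIPY-low libraries and 170, 108 and 214 in the BODIPY-high ones, without overlap. Its log2 fold change of 4.11 (SE 0.49, adjusted p = 0.000342) kept the call under all 19 alternatives. The BODIPY-low values rest on few reads, 1 read being worth 0.93 to 1.14 there. Choroid plexus markers also rose, and the part of those cells in this change was not tested. Nrf1 stood at -0.32 (adjusted p = 0.106) and Gabpa at 0.03.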

How the data were processed

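RNA from 6 libraries was analysed, 3 per fraction, grouped by their labels. The authors deposited a signal, namely read counts per gene divided by 1 size factor per library. FastQC 0.11.4, STAR 2.5.3a with its own gene counting, and DESeq2 were used per the submitters' processing notes and the design text. The design text names mm10, and the notes list mm9 beside it. Not given in the sources used here were the annotation and the strand setting. Without these, it cannot be said how reads in bases that genes share were counted, or whether they were left out.

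Whole reads could be recovered from the deposited signal: 100% of values came out whole at a tolerance of 0.01 read, with a largest distance of 0.00116. Library totals above are of these reads. Reads were amplified without molecular identifiers and do not count molecules. The 12821 genes whose mean reached 10 were tested on log2(value + 1) by limma 3.58.1 in R 4.3.3, with a variance trend, two-sided tests and no block. The pseudocount of 1 understates changes of genes with low values. Benjamini-Hochberg adjustment ran over all tested genes, with a threshold of 0.05. edgeR 4.0.16 (quasi-likelihood) and DESeq2 1.42.0 on the recovered reads, other scalings, filters and pseudocounts, a replicate block, removal of a length and GC trend, and leaving out each library were alternatives. The fit was tested on simulated data. GENCODE M21 (GRCm38), which 15532 symbols (96.0%) matched, gave coordinates, exon overlaps and lengths.

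Genes were named by a rule: those called, the 3 highest and 3 lowest levels and the 3 largest changes in each direction per subunit, a few paralogues and proteins with other names, the translation factors, and at most 3 called genes in each further list. The rule also named the markers Ttr, Enpp2, Ngp and Ltf. Members and lists were chosen with earlier results of these data known. Each library pools mice, no label states if 1 pool gave both fractions, and p-values measure the spread between these 6 libraries.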

Additional observations from a re-analysis of the deposited data

How the results depend on the processing

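No called gene named by the rule changed sign under any alternative. Of these 15, 6 kept the call under all of those run on them. They were Mrps6, Ppargc1a and the markers of other cells Ttr, Enpp2, Ngp and Ltf. Mrpl49, Mrps18a and the remaining called list genes each lost it in at least 1 alternative. Of the 42 genes named by the rule that were not called, 15 changed sign in at least 1 alternative. Calls of members and lists are counted here in the higher direction alone. With 1 library left out, they ranged from 0 to 4 for the large subunit, 1 to 5 for the small subunit, 1 to 4 for the other mitochondrial translation genes, 0 to 2 for the cytosolic pattern, 689 to 1295 for all genes higher and 151 to 523 for all genes lower. The counts of 689 and 219 came without BODIPY-high replicate 3, and those of 180 and 151 lower genes without BODIPY-low replicates 2 and 3. Large subunit calls were 2 with DESeq2, 2 with the length and GC trend removed, and 2 by structure. Small subunit calls were 1 with no filter, with total scaling, with quantile normalization, and by structure. The other mitochondrial translation genes had 3 calls with the length and GC trend removed. The cytosolic pattern had 0 calls with a mean of at least 50, 2 with DESeq2, and 0 for ribosomal proteins only. The cause of these shifts was not tested. Deviations of libraries with the same replicate number correlated at 0.11, 0.14 and 0.07, so the numbers were not taken as a pairing, although each BODIPY-low library correlated best with its own number. With the replicate block, 1451 genes were higher and 760 lower, with 1 large and 3 small subunit calls, Mrps25 being added. With the replicate block and the length and GC trend removed, 743 genes were lower, with 3 large subunit calls and 2 in the cytosolic pattern. No scaling moved the median of all genes by more than 0.1.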
